A study of Mus musculus with 18 samples.

Results

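The Fc gamma receptors bind the constant part of immunoglobulin G, and the 5 mouse genes that encode them and their shared signalling chain were followed here in macrophages with and without the transcription factor Klf3. The members were the probe sets whose single gene symbol was Fcgr1, Fcgr2b, Fcgr3, Fcgr4 or Fcer1g, which gave 9 of the 45037 non-control probe sets and 5 of the 17097 genes on the array. Bone marrow-derived macrophages were grown for 7 to 10 days from male FVB/NJ mice aged 10 to 14 weeks, in medium with supernatant of L929 cells, which supplies M-CSF. This was replaced by plain medium in every group at 0 h. Cells of either genotype were then collected at once (0 h), or after 8 h in medium with 100 ng/mL lipopolysaccharide (LPS), the cell wall component of gram-negative bacteria, or with its vehicle, PBS. The 6 groups were thus Klf3 KO cells with LPS, with vehicle and at 0 h, and WT cells with LPS, with vehicle and at 0 h, each with 3 Affymetrix HT MG-430PM arrays. The labels name neither the Klf3 allele nor how many mice were used, and do not say whether the arrays of a group stand for separate mice or cultures. The p-values therefore cover the array-to-array spread alone, which may be technical.

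Fc gamma receptors fall into activating and inhibitory types, and the balance between them sets how strongly a macrophage answers an immune complex. Activating receptors signal through a tyrosine motif called ITAM, which recruits the kinase Syk and starts phagocytosis and cytokine release. In mice, Fcgr1 encodes the high-affinity activating receptor, Fcgr3 an activating receptor of low affinity, and Fcgr4 an activating receptor of intermediate affinity that prefers the IgG2a and IgG2b subclasses. Fcer1g encodes the common gamma chain that carries the ITAM and brings these receptors to the surface. Fcgr2b encodes the only inhibitory member, whose ITIM motif recruits the phosphatase SHIP (Inpp5d) and dampens the signal. Fcgr2b, Fcgr4 and Fcgr3 lie next to each other, in that order among the measured genes, on chromosome 1. Fcer1g lies nearby on the same chromosome, and Fcgr1 on chromosome 3.

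The 250 bases before the annotated start are shown for the 3 receptor genes whose levels set the genotypes apart: Fcgr1 and Fcgr4 after LPS, and Fcgr2b at 0 h. They come from RefSeq (GRCm38.p6), run 5′ to 3′ on the strand of the gene and end at the base before the start. All 5 genes matched this table.
Fcgr1, chr3:96293970-96294219, minus strand: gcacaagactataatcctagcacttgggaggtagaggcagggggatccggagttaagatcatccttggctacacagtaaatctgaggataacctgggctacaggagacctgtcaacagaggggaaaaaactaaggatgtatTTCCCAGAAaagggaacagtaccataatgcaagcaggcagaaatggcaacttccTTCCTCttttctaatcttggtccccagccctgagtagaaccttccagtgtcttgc
Fcgr4, chr1:171018676-171018925, plus strand: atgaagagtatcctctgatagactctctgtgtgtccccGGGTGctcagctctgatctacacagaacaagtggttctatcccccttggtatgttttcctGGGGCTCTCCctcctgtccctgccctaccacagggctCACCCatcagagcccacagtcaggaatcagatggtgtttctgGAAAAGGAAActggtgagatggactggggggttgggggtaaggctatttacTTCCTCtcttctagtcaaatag
Fcgr2b, chr1:170976072-170976321, minus strand: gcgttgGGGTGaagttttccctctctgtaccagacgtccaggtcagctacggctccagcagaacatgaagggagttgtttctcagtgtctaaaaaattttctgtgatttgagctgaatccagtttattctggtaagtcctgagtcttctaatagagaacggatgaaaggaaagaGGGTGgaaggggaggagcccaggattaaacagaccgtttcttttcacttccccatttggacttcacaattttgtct
Capitals mark matches on either strand to 5 motifs: the interferon-gamma-type GAS motif (TTCNNNGAA), the interferon-type ISRE motif (GAAA, any pair of bases, GAAA), a PU.1 core (GAGGAA), the CACCC box that Klf factors bind, and the NF-kB motif. No capitals of different motifs overlapped. In the Fcgr1 window a GAS match began 109 bases before the start and a PU.1 match began 55 bases before it. In the Fcgr4 window an ISRE match began at 73 bases, an NF-kB match at 152, CACCC boxes at 212 and 115, and a PU.1 match at 22 bases before the start. The Fcgr2b window held CACCC boxes at 244 and 76 bases. Such matches are common by letters alone: of 32851 promoter windows of this length, 7.02% held the GAS letters, 2.98% the ISRE letters, 23.3% the PU.1 core, 52% a CACCC box and 7.25% the NF-kB motif. Of the members not printed, the Fcgr3 windows (2 annotated starts) held a PU.1 and an NF-kB match and the Fcer1g window a CACCC box.

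All values below are log2 intensities after quantile normalization across the 18 arrays. A probe set counts as called where the limma fit over all 45037 probe sets gave a two-sided Benjamini-Hochberg adjusted p under 0.05, and a gene is read by its probe set of highest mean: 1417876_PM_at for Fcgr1, 1448620_PM_at for Fcgr3, 1425225_PM_at for Fcgr4, 1418340_PM_at for Fcer1g and 1435477_PM_s_at for Fcgr2b. Fcgr1 has a second probe set and Fcgr2b 3 others. All 9 probe sets were above the array's nonspecific level (the 95th percentile of 23 control probe sets, 3.71 to 4.54 on the log2 scale) on all 18 arrays. The 4 Fcgr2b probe sets followed each other (Pearson r from 0.947 to 0.997 across the arrays, which share 6 groups), and all 4 match more than one transcript by their design suffix. For 2 of them, among them the one read for Fcgr2b here, the suffix marks probes that can also match transcripts of other genes.

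The arrays bore out their labels. The deposited Klf3 intensity lay between 4.76 and 18.5 in KO arrays, against 82.9 to 317 in WT arrays, in each condition without overlap. Macrophage markers were above the nonspecific level on all arrays (8 of 8), while most markers of other cells that carry Fc receptors were at or under it on all 18: 5 of 6 for B cells, 4 of 7 for NK cells, 5 of 7 for neutrophils, 7 of 8 for mast cells and basophils, and 4 of 5 for dendritic cells. The median deposited intensity ran from 11.4 to 18.6 over the arrays. Each plate row of arrays carried a single condition, so effects of row and of treatment cannot be told apart. A row held arrays of both genotypes, and the genotype comparisons were also fitted with row as a block, a choice made after seeing the data. The Gapdh 5′ to 3′ difference, a mark of RNA integrity, averaged -0.43 ± 0.05 in KO and -0.36 ± 0.28 in WT cells with LPS, -0.20 ± 0.09 in KO and -0.17 ± 0.08 in WT cells with vehicle, and 0.09 ± 0.08 in KO and 0.14 ± 0.02 in WT cells at 0 h (log2, SD, n = 3 each). It was thus lower with LPS than with vehicle and lower with vehicle than at 0 h, and its part in the LPS and vehicle results below was not tested.

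Each receptor had its own profile over the 6 groups. Fcgr1 averaged 9.32 ± 0.17 in KO and 9.72 ± 0.33 in WT cells at 0 h, 8.58 ± 0.37 in KO and 8.81 ± 0.17 in WT cells with vehicle, and 10.46 ± 0.60 in KO and 11.75 ± 0.46 in WT cells with LPS (SD, n = 3 each). In its order from low to high (KO vehicle, WT vehicle, KO 0 h, WT 0 h, KO LPS, WT LPS), the arrays of neighbours overlapped except between WT vehicle and KO 0 h and between KO LPS and WT LPS. Fcgr4 averaged 7.64 ± 0.29 in KO and 7.84 ± 0.26 in WT cells at 0 h, 6.29 ± 0.31 in KO and 6.78 ± 0.18 in WT cells with vehicle, and 6.70 ± 0.36 in KO and 8.97 ± 0.81 in WT cells with LPS. KO cells with LPS thus sat between KO and WT cells with vehicle in Fcgr4, and overlapped both, while WT cells with LPS were above all others. Fcgr3 averaged 11.49 ± 0.06 in KO and 11.43 ± 0.06 in WT cells at 0 h, 11.46 ± 0.03 in KO and 11.58 ± 0.04 in WT cells with vehicle, and 10.13 ± 0.26 in KO and 10.62 ± 0.19 in WT cells with LPS. Both LPS groups lay below the other 4 groups and did not overlap each other, and among the other 4 each group overlapped the next. Fcer1g stayed within 11.96 to 12.39 on all 18 arrays, with overlap between all neighbours in the order of its levels. Fcgr2b averaged 10.84 ± 0.12 in KO and 11.76 ± 0.23 in WT cells at 0 h, 11.31 ± 0.13 in KO and 11.63 ± 0.06 in WT cells with vehicle, and 12.70 ± 0.07 in KO and 12.61 ± 0.11 in WT cells with LPS. Its order ran KO 0 h, KO vehicle, WT vehicle, WT 0 h, WT LPS, KO LPS, and only the neighbours WT vehicle and WT 0 h, and WT LPS and KO LPS, overlapped.

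**Figure D1:**
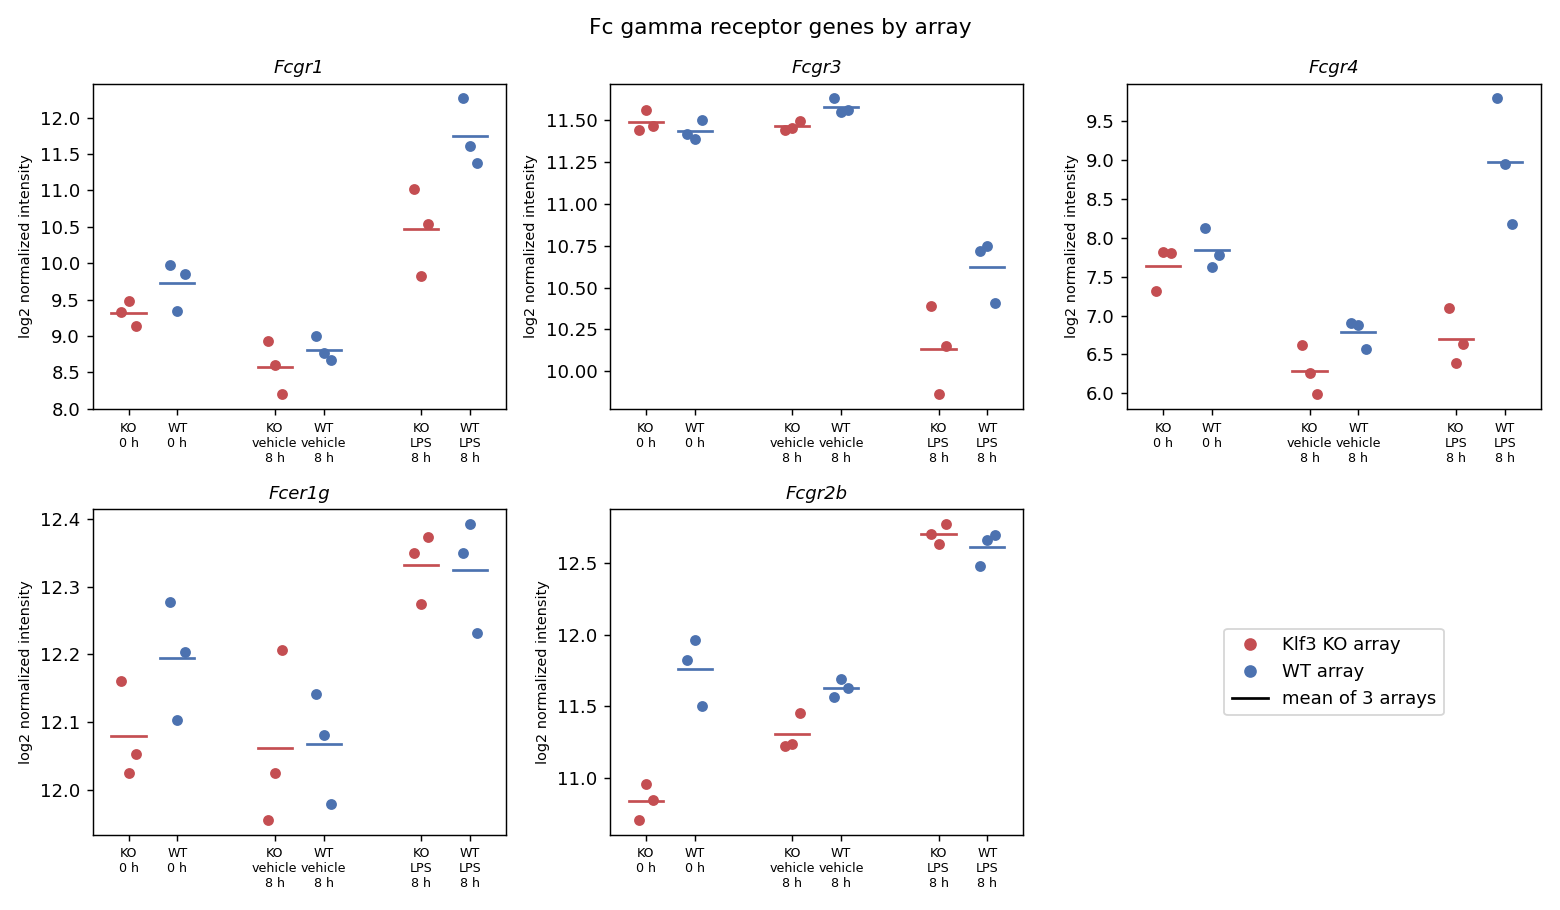
Log2 normalized intensity (vertical axis) of the 5 genes' probe sets of highest mean, 1 panel a gene, in the 3 conditions with KO left of WT. Points are arrays and lines are means of 3. Fcgr4 in KO cells with LPS (6.39 to 7.10) overlaps the vehicle arrays of both genotypes, and Fcgr2b in KO cells at 0 h (10.71 to 10.96) is below all WT arrays.

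The first comparison asked what LPS did to the receptors over 8 h, against vehicle for the same time. In WT cells Fcgr1, Fcgr4 and the inhibitory Fcgr2b rose and Fcgr3 fell, so that 4 of 5 genes were called, beside 30.1% of all genes (12.6% higher, 17.5% lower), and 8 of 9 probe sets, beside 25.1% of all probe sets. In KO cells Fcgr1 and Fcgr2b rose and Fcgr3 fell, which is 3 of 5 genes, beside 32.3% of all genes (12.9% higher, 19.4% lower), and 7 of 9 probe sets, beside 27.6% of all. Among activating receptors the high-affinity Fcgr1 stood at 11.02, 9.83 and 10.54 in KO cells with LPS, against 8.93, 8.60 and 8.20 in KO cells with vehicle. In WT cells it stood at 12.27, 11.62 and 11.37 with LPS, against 8.99, 8.77 and 8.67 with vehicle. The LPS arrays of either genotype lay above all their vehicle arrays. The fit gave a rise of 1.89 ± 0.28 (log2 difference ± SE, 3.70-fold, limma adjusted p = 6.01e-05) in KO cells and of 2.94 ± 0.28 (7.69-fold, limma adjusted p = 6.03e-07) in WT cells. The second Fcgr1 probe set, 1436625_PM_at, rose by 1.49 ± 0.22 (limma adjusted p = 4.79e-05) in KO and by 2.90 ± 0.22 (limma adjusted p = 3.24e-08) in WT cells. These are bulk RNA measurements, in which more cells with a transcript and more transcript per cell cannot be told apart.

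Fcgr4 was at 7.10, 6.39 and 6.63 in KO cells with LPS, against 6.62, 6.26 and 5.99 in KO cells with vehicle. In WT cells it was at 9.79, 8.95 and 8.17 with LPS, against 6.90, 6.88 and 6.57 with vehicle. LPS and vehicle arrays overlapped in KO cells and were apart in WT cells. The difference was 0.42 ± 0.31 in KO cells (limma adjusted p = 0.371), past the threshold under 0 of 17 alternative settings (adjusted p from 0.256 to 0.863), and Fcgr4 rose by 2.19 ± 0.31 in WT cells (4.55-fold, limma adjusted p = 3.93e-05). The low-affinity Fcgr3 went the other way, at 10.39, 9.86 and 10.15 in KO cells with LPS, against 11.44, 11.45 and 11.50 with vehicle. WT cells had 10.72, 10.75 and 10.41 with LPS, against 11.63, 11.55 and 11.56 with vehicle. All LPS arrays were below all vehicle arrays: Fcgr3 fell by 1.33 ± 0.14 in KO cells (2.51-fold, limma adjusted p = 9.81e-07) and fell by 0.96 ± 0.14 in WT cells (1.94-fold, limma adjusted p = 4.5e-05).

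The gamma chain gene Fcer1g was at 12.35, 12.27 and 12.37 in KO cells with LPS, against 11.96, 12.02 and 12.21 with vehicle, and at 12.35, 12.39 and 12.23 in WT cells with LPS, against 12.14, 12.08 and 11.98 with vehicle. Its LPS and vehicle arrays did not overlap in either genotype, as in 40.2% of all probe sets in KO and 35% in WT cells, but the differences of 0.27 ± 0.11 in KO (limma adjusted p = 0.0922) and 0.26 ± 0.11 in WT cells (limma adjusted p = 0.117) missed the threshold. Without KO vehicle replicate 3 the KO difference passed (0.34, limma adjusted p = 0.0495). The inhibitory receptor gene Fcgr2b was at 12.70, 12.63 and 12.77 in KO cells with LPS, against 11.22, 11.24 and 11.46 with vehicle. In WT cells it was at 12.48, 12.66 and 12.69 with LPS, against 11.57, 11.69 and 11.63 with vehicle. The LPS arrays stood above all vehicle arrays, with rises of 1.39 ± 0.13 in KO cells (2.63-fold, limma adjusted p = 4.58e-07) and 0.98 ± 0.13 in WT cells (1.98-fold, limma adjusted p = 2.9e-05). The other 3 Fcgr2b probe sets rose by 1.60 to 1.95 in KO and by 1.11 to 1.48 in WT cells.

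**Figure D2:**
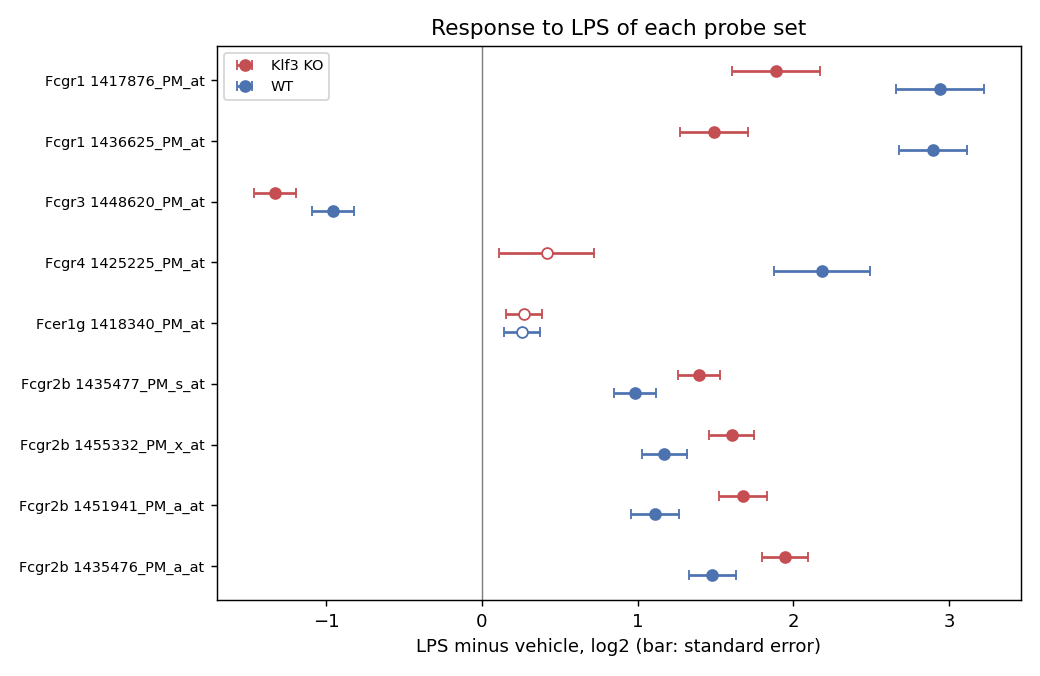
LPS minus vehicle log2 difference ± SE of the 9 probe sets (rows), KO above WT, with filled markers for differences past the threshold and open markers for the others. Fcgr4 is the member whose KO and WT points lie farthest apart (0.42 and 2.19), and the Fcgr3 points are the only ones below 0.

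Whether the LPS response itself differed between genotypes was tested as the KO response minus the WT response. By this test 0 of the 5 genes were called with limma, 3 of 5 had an unadjusted p under 0.05, and 0.848% of all genes were called. Fcgr4 came nearest, with a KO response smaller by 1.77 ± 0.43 on the log2 scale (limma adjusted p = 0.0842). It passed in 3 of 24 alternative settings (adjusted p from 0.00624 to 0.29), one of which left out the WT LPS array with the lowest Fcgr4 value, replicate 3 (difference -2.16, limma adjusted p = 0.00624). For Fcgr1 the difference was -1.06 ± 0.40 (limma adjusted p = 0.335) by its brighter probe set. The dimmer probe set passed at -1.41 ± 0.31 (limma adjusted p = 0.048), beside 0.608% of all probe sets, but in only 6 of 22 alternative settings (adjusted p from 0.00491 to 0.394). Its call ended with plate row as a block (-1.27, 0.0786), without any one vehicle array, without WT LPS replicate 1 or 2, or without KO LPS replicate 2 or 3 (-1.48 to -1.21, adjusted p from 0.054 to 0.13). The differences were -0.37 ± 0.19 for Fcgr3 (limma adjusted p = 0.53), 0.01 ± 0.16 for Fcer1g (limma adjusted p = 0.989) and 0.41 ± 0.19 for Fcgr2b (limma adjusted p = 0.457).

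Set side by side after 8 h of LPS, KO cells had less Fcgr1 and Fcgr4 message than WT cells, while their Fcgr2b and Fcer1g arrays overlapped those of WT cells. These 2 of 5 genes were called, both lower, beside 4.79% of all genes (2.48% lower), and 3 of 9 probe sets, beside 3.83% of all. The arrays are those given above for the LPS response, so this comparison shares them with it. In Fcgr4 the highest KO array (7.10) lay below the lowest WT array (8.17), and the difference of -2.26 ± 0.31 was a 4.80-fold lower level in KO cells (limma adjusted p = 0.000385). It passed in 17 of 18 alternatives and lost its call only where the fit held just these 6 arrays (limma adjusted p = 0.0853). That fit alone took its spread from these groups only. The Fcgr4 SD was 0.81 in WT and 0.36 in KO cells with LPS, against 0.18 to 0.31 in the other groups. Over all genes, WT arrays with LPS deviated most from their group means. Their SD was 0.28 to 0.34, against 0.16 to 0.27 on the other arrays. Within the 2 plate rows that carried the LPS arrays the Fcgr4 difference was -2.27 and -1.67, and -1.97 with row as a block (limma adjusted p = 0.000587). The 3 WT arrays spread widely in Fcgr4, and the WT array with the highest value (9.79) also had the highest Gapdh 5′ to 3′ difference of its group: -0.07 for that array, then -0.40 and -0.63 for the WT arrays at 8.95 and 8.17. Fcgr1 ran in the same order over these 3 arrays, at 12.27, 11.62 and 11.37. The part of this in the Fcgr4 and Fcgr1 results was not tested.

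In Fcgr1 the highest KO array (11.02) lay below the lowest WT array (11.37), a difference of -1.29 ± 0.28 (2.44-fold lower in KO cells, limma adjusted p = 0.0153). That call was fragile. Without KO LPS replicate 2, the lowest at 9.83, the difference was -0.97 (limma adjusted p = 0.0818). Over all 18 alternatives the adjusted p ran from 0.00162 to 0.249. Within the 2 plate rows it was -0.92 and -1.19. With the deposited values left on their own scale the difference was -0.98 (limma adjusted p = 0.0853). In the dimmer Fcgr1 probe set KO cells had 7.89, 7.24 and 7.74, against 9.51, 9.35 and 8.65 in WT cells, again without overlap. That difference was -1.55 ± 0.22 (2.92-fold lower in KO cells, limma adjusted p = 0.000521). Fcgr3 was apart as well, with the highest KO array at 10.39 and the lowest WT array at 10.41, like 16.4% of all probe sets. Its difference of -0.49 ± 0.14 just missed the threshold (limma adjusted p = 0.0562) and passed in 7 of 18 alternatives (0.00908 to 0.756), among them those without WT LPS replicate 3 (-0.59, 0.0206) and without KO LPS replicate 1 (-0.61, 0.0223). KO and WT arrays overlapped in Fcer1g (0.01 ± 0.11, limma adjusted p = 0.984) and in Fcgr2b (0.09 ± 0.13, limma adjusted p = 0.818).

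**Figure D3:**
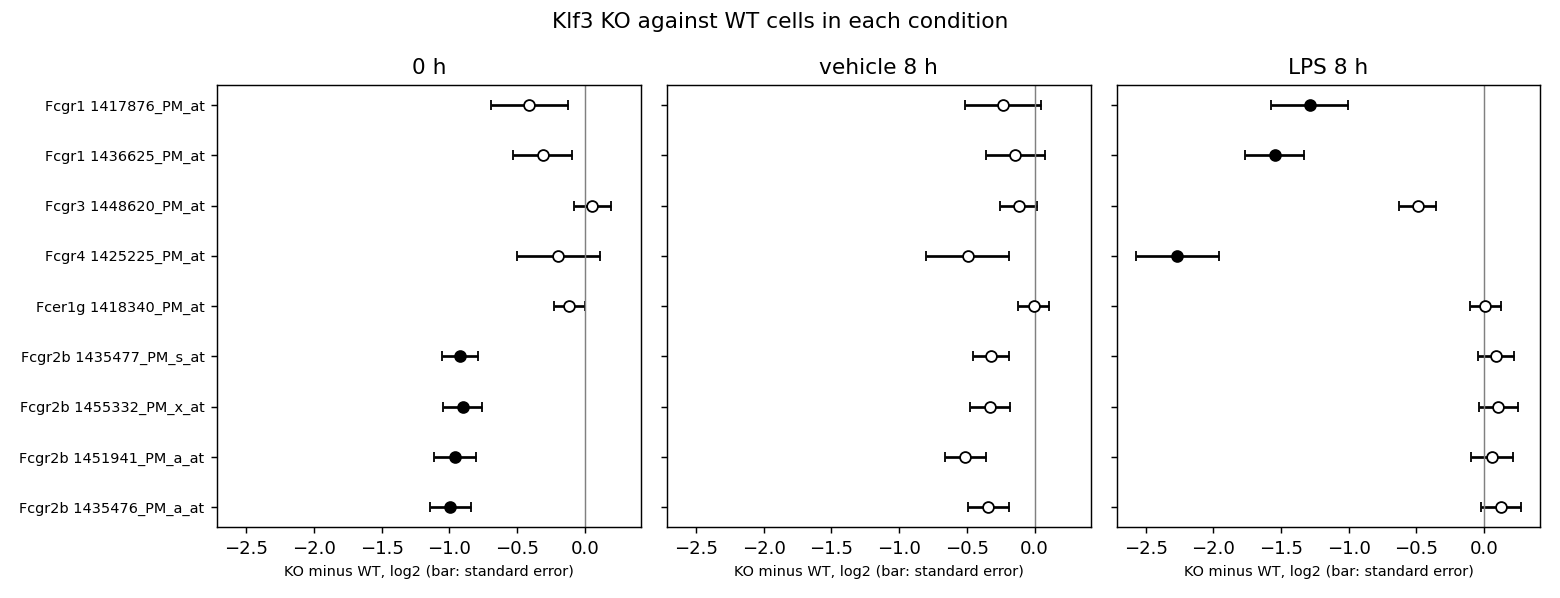
KO minus WT log2 difference ± SE of the 9 probe sets at 0 h, after vehicle and after LPS, with filled markers for differences past the threshold and open markers for the others. The Fcgr2b probe sets are below 0 and past the threshold at 0 h (-0.90 to -0.99), and the Fcgr1 and Fcgr4 probe sets after LPS (-1.29 to -2.26).

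At 0 h, before any treatment, the genotypes differed in the inhibitory member. Fcgr2b was at 10.71, 10.96 and 10.85 in KO cells, against 11.82, 11.96 and 11.51 in WT cells, with each KO array below each WT array. The difference was -0.92 ± 0.13 (1.90-fold lower in KO cells, limma adjusted p = 0.0132) and the other 3 Fcgr2b probe sets were lower by 0.90, 0.96 and 0.99. That is 1 of 5 genes, beside 0.117% of all genes (0.0175% lower), and 4 of 9 probe sets, beside 0.0777% of all. Arrays of the genotypes were apart in 13.8% of all probe sets, and by p Fcgr2b ranked 10 among the 45037 probe sets. The direction was the same in 18 of 18 alternatives (-1.05 to -0.83) but the call held in only 9, with adjusted p from 0.000301 to 1. Within the 2 plate rows of these arrays it was -1.18 and -0.60, and with row as a block it was -0.89 and lost its call (limma adjusted p = 0.0871). It was also lost when any of 4 arrays was left out: WT replicate 1 (-0.90, limma adjusted p = 0.103), WT replicate 2 (-0.83, 0.0551), KO replicate 1 (-0.86, 0.0736) or KO replicate 3 (-0.93, 0.0636). Of the activating members at 0 h, Fcgr1 had 9.33, 9.47 and 9.14 in KO cells, against 9.98, 9.35 and 9.85 in WT cells, and Fcgr4 had 7.31, 7.81 and 7.80 in KO cells, against 8.12, 7.62 and 7.77 in WT cells. Both overlapped, as did Fcgr3 and Fcer1g, and the 4 differences (-0.41, -0.20, 0.05 and -0.12) had an adjusted p of 1.

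After vehicle the genotype difference of Fcgr2b was -0.32 ± 0.13 (limma adjusted p = 1). Its KO arrays still lay below its WT arrays in all 4 probe sets, and the probe set farthest apart, 1451941_PM_a_at, differed by -0.51 ± 0.15 (limma adjusted p = 0.799). Arrays were apart in 10.9% of all probe sets in this comparison. With limma 0 of 5 genes were called, 1 of 5 had an unadjusted p under 0.05, and 0.0117% of all genes were called. Fcgr4 differed by -0.49 ± 0.31, Fcgr1 by -0.23 ± 0.28, Fcgr3 by -0.12 ± 0.14 and Fcer1g by -0.01 ± 0.11. Averaged over the 3 conditions, limma again called 0 of 5 genes (3 of 5 at an unadjusted p under 0.05), beside 0.316% of all genes. The largest of these averages was that of Fcgr4, at -0.99 ± 0.17 (limma adjusted p = 0.0851), past the threshold in 7 of 16 alternatives (1.26e-08 to 0.308), one of them without WT replicate 3 (-1.17, 0.0404).

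Vehicle cells had spent 8 h without L929 medium, so the vehicle arrays were also set against 0 h. Fcgr4 fell in both genotypes: it fell by 1.35 ± 0.31 in KO cells (2.55-fold, limma adjusted p = 0.00839) and fell by 1.05 ± 0.31 in WT cells (2.08-fold, limma adjusted p = 0.0336). Its highest vehicle array lay below its lowest 0 h array in either genotype, like 31.6% of all probe sets in KO and 33.3% in WT cells. Fcgr1 differed by -0.74 ± 0.28 in KO cells (limma adjusted p = 0.112) and fell by 0.91 ± 0.28 in WT cells (limma adjusted p = 0.0446). Its second probe set was not called in either genotype (-0.29 in KO, adjusted p = 0.486, and -0.46 in WT cells, adjusted p = 0.212, by limma). In KO cells Fcgr2b rose by 0.47 ± 0.13 (limma adjusted p = 0.0324), but its other 3 probe sets (0.27, -0.08 and 0.25) were not called. Counted over genes, 2 of 5 were called in KO and 2 of 5 in WT cells, beside 11.2% and 12.7% of all genes. The KO fall of Fcgr4 held in 17 of 17 alternatives. The WT calls were fragile: each held in 10 of 17 alternatives, and the adjusted p ran from 0.013 to 0.169 for Fcgr1 and from 0.00483 to 0.139 for Fcgr4. Fcgr1 lost its call without WT 0 h replicate 1 (-0.79) or 3 (-0.86) or any WT vehicle array (-1.01, -0.90 and -0.85), and Fcgr4 without any single WT array of the 2 groups (-1.16 to -0.91). The KO rise of Fcgr2b held in 7 of 17 alternatives (0.00361 to 0.899) and was lost without KO 0 h replicate 1 (0.40) or 3 (0.48) or any KO vehicle array (0.51, 0.50 and 0.39). With limma, 0 of 5 genes differed between genotypes in this response (1 of 5 at an unadjusted p under 0.05), beside 0% of all genes. The largest difference was that of Fcgr2b, at 0.60 ± 0.19 (limma adjusted p = 1).

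To compare activating with inhibitory receptors directly, Fcgr2b was subtracted from every other probe set within each array, and the same fit was run on these differences over 45033 probe sets. Because Fcgr2b itself moved with LPS and at 0 h, nearly every probe set shifts against it in those comparisons, and the members are read beside that background. With LPS, 93.1% of all probe sets in KO and 86.2% in WT cells fell against Fcgr2b, and 2.13% in KO and 2.56% in WT cells rose. Fcgr1 differed from Fcgr2b by 0.49 ± 0.32 in its response in KO cells (limma adjusted p = 0.14, and 0.0358 at a difference of 0.76 without KO LPS replicate 2) and rose against it by 1.96 ± 0.32 in WT cells (limma adjusted p = 2.47e-05). Fcgr4 fell against Fcgr2b by 0.98 ± 0.33 in KO cells (limma adjusted p = 0.00836) and rose against it by 1.20 ± 0.33 in WT cells (limma adjusted p = 0.00245). The KO fall ended without KO vehicle replicate 1 (-0.77, limma adjusted p = 0.0508, its one lost call in 20 alternatives), and the WT rise held in 16 of 20. Against Fcgr2b, Fcgr3 fell by 2.72 ± 0.19 in KO cells and fell by 1.94 ± 0.19 in WT cells. Fcer1g fell by 1.12 ± 0.18 in KO cells and fell by 0.72 ± 0.18 in WT cells.

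The genotype difference of that LPS response, activating against inhibitory, was called for 1 of the 4 activating genes, beside 1.56% of all probe sets (1.41% lower). This was Fcgr4, at -2.18 ± 0.47 (4.53-fold, limma adjusted p = 0.0244). Its direction was the same in 27 of 27 alternatives (-2.61 to -1.70) and its call held in 17 (0.0012 to 0.0706). The difference combined those of Fcgr4 (-1.77) and Fcgr2b (0.41), neither of which was called by itself. The call was lost with arrays shifted to the same median or to the hybridisation controls, and on the deposited scale. For differences from Fcgr2b these 3 scalings are the same fit. They are counted as 3 alternatives here and in the other counts for such differences. A fit of only the groups compared lost it too. Single arrays could also end the call: WT vehicle replicate 2 (-2.20, 0.0592) or 3 (-2.08, 0.0678), KO vehicle replicate 1 (-1.98, 0.0706) or 2 (-2.16, 0.0601), or KO LPS replicate 2 (-2.05, 0.0563) or 3 (-2.10, 0.0634). The dimmer Fcgr1 probe set passed too (-1.82 ± 0.36, limma adjusted p = 0.0164), and the brighter one did not (-1.47 ± 0.45, limma adjusted p = 0.0857). Fcgr3 (-0.78 ± 0.27, limma adjusted p = 0.11) and Fcer1g (-0.40 ± 0.25, limma adjusted p = 0.303) were not called.

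**Figure D4:**
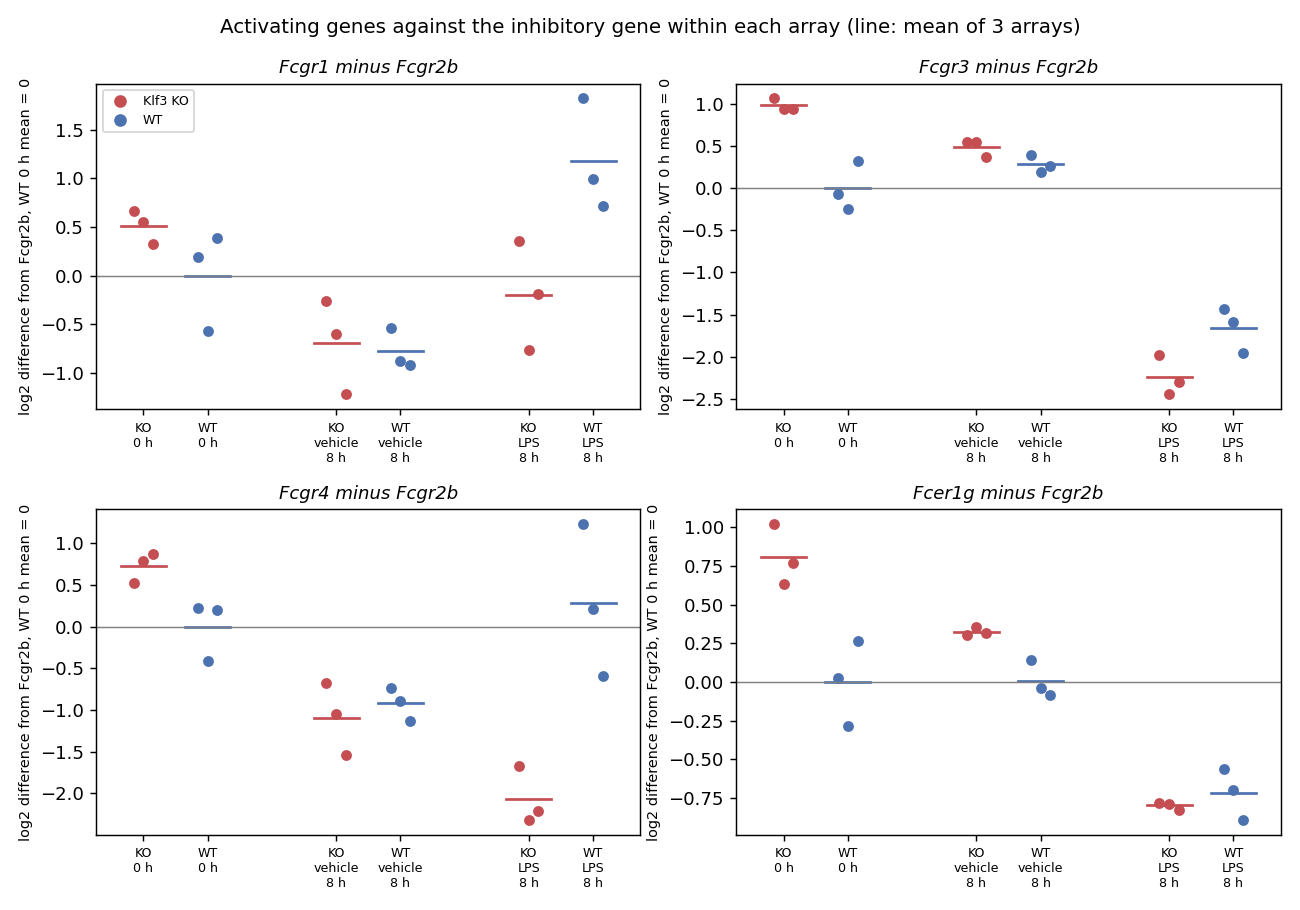
Activating member minus Fcgr2b within each array, as a log2 difference shifted so that the WT 0 h mean is 0, by condition with KO left of WT; points are arrays and lines are means of 3. With LPS, Fcgr4 stands at -2.32 to -1.68 in KO cells, against -0.59 to 1.23 in WT cells.

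After LPS the Fcgr4 level relative to Fcgr2b was -1.68, -2.32 and -2.21 in KO cells, against 1.23, 0.21 and -0.59 in WT cells, on a scale where the WT mean at 0 h is 0. All KO arrays were below all WT arrays. The difference was -2.35 ± 0.33 (5.11-fold lower in KO cells, limma adjusted p = 0.000228). For Fcgr1 the same scale gave 0.36, -0.76 and -0.19 in KO cells, against 1.82, 1.00 and 0.72 in WT cells, again without overlap, as in 17.3% of all probe sets on this scale. That difference was -1.38 ± 0.32 (limma adjusted p = 0.0208). Fcgr3 (-0.58 ± 0.19, limma adjusted p = 0.13) and Fcer1g (-0.08 ± 0.18, limma adjusted p = 0.894) were not called, so that 2 of 4 were, beside 2.54% of all probe sets (1.5% lower). The Fcgr1 call held in 13 of 21 alternatives and ended with plate row as a block (-1.12, limma adjusted p = 0.073). It also ended without WT LPS replicate 1 (-1.05, limma adjusted p = 0.0839), KO LPS replicate 2 (-1.09, 0.135) or KO LPS replicate 3 (-1.39, 0.0693). The Fcgr4 call held in 20 of 21 and ended in a fit of only the groups compared.

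At 0 h the balance leaned the other way. Relative to Fcgr2b, Fcgr3 was higher in KO cells by 0.98 ± 0.19 (limma adjusted p = 0.000267), Fcer1g by 0.81 ± 0.18 (limma adjusted p = 0.000501) and Fcgr4 by 0.73 ± 0.33 (limma adjusted p = 0.0424), and Fcgr1 differed by 0.51 ± 0.32 (limma adjusted p = 0.124). The Fcgr4 call ended without WT 0 h replicate 2 (0.52, 0.184) or KO 0 h replicate 2 (0.70, 0.0857) or 3 (0.66, 0.102). Since 94.2% of all probe sets were higher in KO cells by this measure, nothing about the activating genes is read from these 3 of 4. Over the 3 conditions together, 66.7% of probe sets were higher and 0.175% lower in KO cells relative to Fcgr2b. Fcer1g was among the higher (0.35 ± 0.12, limma adjusted p = 0.0271) and Fcgr4 among the lower (-0.60 ± 0.18, limma adjusted p = 0.0159). The call of the Fcgr4 average held in 19 of 19 alternatives, but both averages mix unlike conditions. At 0 h, after vehicle and after LPS the Fcgr4 differences were 0.73, -0.17 and -2.35, and those of Fcer1g 0.81, 0.32 and -0.08. After vehicle, limma called 0 of the 4 genes between genotypes (0 at an unadjusted p under 0.05), beside 0.0999% of all probe sets. In vehicle against 0 h, all 4 genes fell against Fcgr2b in KO cells, beside 33.7% of all probe sets. Fcgr4 fell by 1.82 ± 0.33 (limma adjusted p = 0.000745), Fcgr1 fell by 1.21 ± 0.32 (0.00932), Fcgr3 fell by 0.49 ± 0.19 (0.0491) and Fcer1g fell by 0.48 ± 0.18 (0.0392). With Fcgr2b read by any of its other 3 probe sets only 1 of the 4 genes was called here, and with 1451941_PM_a_at the differences of Fcgr3 and Fcer1g turned to 0.052 and 0.061. In WT cells limma called 0 of 4 (2 of 4 at an unadjusted p under 0.05), beside 9.38% of all probe sets. The difference between genotypes in this response was called for 0 of 4 (1 of 4 at an unadjusted p under 0.05), beside 0.0111% of all probe sets.

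Other genes of Fc receptor signalling, related receptors and reported regulators were taken from 8 lists. Their counts with LPS stand beside 12.9% of all genes higher and 19.4% lower in KO cells, and 12.6% higher and 17.5% lower in WT cells. Their counts of KO against WT cells after LPS stand beside 2.31% of all genes higher and 2.48% lower. Of 14 measured kinases and adaptors of the activating pathway, 4 rose and 4 fell with LPS in KO cells (median -0.03, as over all genes), and 6 rose and 3 fell in WT cells (median 0.26, against -0.01 over all genes). Lcp2, the adaptor SLP-76, rose by 3.27 in KO and 2.97 in WT cells, and Syk itself by 1.19 and 1.00, while the adaptor Lat2 fell by 1.87 in KO and fell by 0.80 in WT cells. After LPS, 4 of the 14 were lower in KO than in WT cells and 0 were higher, with a list median of -0.32 against -0.02 over all genes. Among the 4 were Lat2 (-1.06 ± 0.15), the exchange factor Vav1 (-0.84 ± 0.15) and the phosphoinositide 3-kinase subunit Pik3cd (-0.80 ± 0.16). On the inhibitory side, 7 phosphatases and docking proteins were measured, of which 2 rose and 3 fell with LPS in KO cells, and 3 rose and 3 fell in WT cells. Inpp5d, the SHIP phosphatase that Fcgr2b recruits, fell by 1.92 in KO and fell by 0.80 in WT cells, and was the 1 of 7 that was lower in KO cells after LPS (-0.88 ± 0.24, limma adjusted p = 0.0485). Ptpn22 fell by 1.83 in KO and fell by 1.98 in WT cells, the SHIP2 phosphatase Inppl1 fell by 0.66 in KO and fell by 0.72 in WT cells, and the docking protein Dok2 rose by 1.20 and 1.64.

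Of 15 genes of the phagocytic cup and its actin, 3 rose and 7 fell with LPS in KO cells, and 4 rose and 5 fell in WT cells. The Rac activator Dock2 fell by 1.55 in KO and fell by 0.96 in WT cells, and the myosin Myo1f fell by 1.33 in KO and fell by 0.98 in WT cells. The related myosin Myo1e rose by 1.44 in KO and 1.05 in WT cells, and the GTPase Rac2 by 0.80 and 1.11. One of the 15, the actin nucleation factor Was, was lower in KO cells after LPS (-0.51 ± 0.13). Of 10 other immunoglobulin receptors, 1 rose and 3 fell with LPS in KO cells, and 2 rose and 2 fell in WT cells. Fcgrt, the neonatal receptor that recycles IgG, fell by 2.40 in KO and fell by 1.53 in WT cells, and Fcrls, an Fc receptor-like gene, fell by 1.90 in KO and fell by 2.03 in WT cells. Trim21, the cytosolic antibody receptor, rose by 2.29 in KO and 1.53 in WT cells. It was the 1 of 10 called between genotypes after LPS (0.66 ± 0.17 higher in KO cells, limma adjusted p = 0.0437). With arrays shifted to the same median 0 of the 10 were called. On the deposited scale, or with arrays shifted to the hybridisation controls, 1 was higher.

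The gamma chain belongs to a wider set of ITAM receptors and adaptors, of which 13 others were measured. With LPS, 5 rose and 6 fell in KO cells, and 4 rose and 5 fell in WT cells. Trem1 rose by 2.07 in each genotype, Trem3 by 2.43 in KO and 3.11 in WT cells and Clec4e, the receptor Mincle, by 2.56 in KO and 2.68 in WT cells, while Trem2 fell by 2.50 in KO and fell by 2.10 in WT cells. Between genotypes after LPS, 2 were higher in KO cells, among them Clec4n, the receptor Dectin-2 that signals through Fcer1g (1.28 ± 0.31), and 2 were lower, among them Cd300lb (-0.95 ± 0.18). Of 11 genes on a list of other ITIM receptors and related receptors, 3 rose and 2 fell with LPS in KO cells, and 5 rose and 2 fell in WT cells. Cd300a, an inhibitory receptor of myeloid cells, fell by 3.90 in KO and fell by 3.80 in WT cells, and Cd200r1, the receptor for CD200, fell by 1.94 in KO and fell by 1.92 in WT cells. The sialic acid-binding receptors Siglece (1.05 in KO, 1.38 in WT cells) and Cd33 (1.40 in KO, 1.33 in WT cells) rose. After LPS, limma called 0 of these 11 between genotypes, with 3 at an unadjusted p under 0.05.

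Of 11 transcription factors reported for Fc receptor genes, 6 rose and 5 fell with LPS in either genotype, but with arrays shifted to the hybridisation controls 5 rose and 3 fell in KO cells, and 2 rose and 5 fell in WT cells. Cebpa fell by 1.92 in KO and fell by 2.60 in WT cells and was higher in KO cells after LPS by 0.67 ± 0.18 (limma adjusted p = 0.0484), as was Tfec, by 1.15 ± 0.16 (limma adjusted p = 0.000603). Irf8 fell by 1.21 in KO and fell by 0.48 in WT cells, and was lower in KO cells after LPS by 0.77 ± 0.14 (limma adjusted p = 0.00538). Irf1 rose by 1.53 in KO and 1.76 in WT cells, Cebpb by 1.29 and 1.34, and Tfec by 2.46 and 1.16. Of 11 cytokine and anaphylatoxin receptors reported to shift Fc receptor levels, 2 rose and 4 fell in KO cells with LPS, and 3 rose and 4 fell in WT cells. The type I interferon receptor chain Ifnar1 rose by 0.73 in KO and 1.08 in WT cells. Tgfbr1 fell by 1.28 in KO and fell by 1.94 in WT cells, Tgfbr2 fell by 1.65 in KO and fell by 0.84 in WT cells, and C3ar1 fell by 1.14 in KO and fell by 0.51 in WT cells. After LPS, 5 were lower in KO cells and 1 was higher, with a list median of -0.50 against -0.02 over all genes. The lower ones included the interferon-gamma receptor chain Ifngr1 (-0.77 ± 0.14), the second type I interferon receptor chain Ifnar2 (-0.50 ± 0.11), Tgfbr2 (-1.13 ± 0.20) and the C3a receptor C3ar1 (-0.55 ± 0.14), and the higher one was Tgfbr1 (0.77 ± 0.16).

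The counts of these lists depended on how arrays were scaled, with LPS mostly in WT cells. There the median of all genes in the LPS response stood at -0.01 after quantile normalization, at -0.05 with arrays shifted to the same median, at -0.44 with deposited values on their own scale and at -0.43 with arrays shifted to the hybridisation controls, and in KO cells at -0.03, 0.09, -0.03 and 0.00. By the last 2 scalings, 2 of the 14 kinases and adaptors rose in WT cells in place of 6, and 4 or 3 fell in place of 3. Of the ITIM receptors and related receptors 1 rose in WT cells in place of 5. Of the phosphatases and docking proteins 0 rose in place of 3. Of the phagocytic cup genes 2 or 1 rose in WT cells in place of 4, and 3 fell in KO cells in place of 7. Of the cytokine and anaphylatoxin receptors 1 or 0 rose in WT cells in place of 3. In the KO against WT comparison after LPS the median of all genes stood at -0.02 after quantile normalization, at 0.07 with arrays shifted to the same median and at 0.29 with deposited values on their own scale. The kinases and adaptors lower in KO cells numbered 4, 1 and 0 by these scalings, and the cytokine and anaphylatoxin receptors 5, 2 and 0. Relative to the median of all genes the list medians moved less, at -0.30, -0.32 and -0.32 for the kinases and adaptors and at -0.49, -0.52 and -0.52 for the cytokine and anaphylatoxin receptors. With deposited values on their own scale Lat2 differed by -0.79 (limma adjusted p = 0.0576), Tgfbr2 by -0.91 (0.0541), Vav1 by -0.57 (0.153), Pik3cd by -0.50 (0.22), Was by -0.19 (0.564), Cd300lb by -0.69 (0.0794), Ifngr1 by -0.49 (0.175), Ifnar2 by -0.23 (0.51), C3ar1 by -0.27 (0.481), Irf8 by -0.49 (0.199) and Inpp5d by -0.60 (0.186). On that scale the LPS response of Dok2 was 0.93 (limma adjusted p = 0.123) in KO and 0.85 (0.114) in WT cells, that of Inppl1 -0.59 (0.0917) in KO cells, and in WT cells those of Syk 0.34 (0.426) and Cd33 0.54 (0.278).

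Some markers of other cells moved with LPS alongside the receptors. The neutrophil list's summed intensity was 427 to 603 in KO and 498 to 836 in WT cells with LPS, against 76.9 to 86.5 in KO and 68.8 to 104 in WT cells with vehicle. Of this list S100a8 rose by 2.45 in KO and 3.70 in WT cells, and Camp by 4.75 and 4.22. The mast cell and basophil sum was 394 to 455 in KO and 186 to 353 in WT cells with LPS, against 65.2 to 68.2 and 64.2 to 69.3 with vehicle, and came with Hdc (5.06 and 4.28). The NK cell sum was 152 to 169 in KO and 140 to 424 in WT cells with LPS, against 79.8 to 87.8 and 85 to 86.3 with vehicle, and came with Klrk1 (2.19 and 2.71). The dendritic cell sum was 213 to 257 in KO and 97.5 to 257 in WT cells with LPS, against 87.4 to 120 and 91.6 to 116 with vehicle. Of this list Itgax rose by 1.68 in KO cells (limma adjusted p = 0.0009) and differed by 0.76 in WT cells (0.116). The B cell sum was 57.7 to 63.3 in KO and 46.7 to 62.6 in WT cells with LPS, against 55.6 to 64.2 and 51.9 to 56.5 with vehicle. The macrophage sum was 24138 to 24978 in KO and 26876 to 27507 in WT cells with LPS, against 26773 to 27002 and 27750 to 27768 with vehicle. Between genotypes after LPS, S100a8 (-1.28, limma adjusted p = 0.026) and the macrophage marker Mrc1 (-1.11, 0.00167) were lower in KO cells. Hdc was higher (0.98, limma adjusted p = 0.0154), and no other listed marker was called. Most markers of these other cells were at or under the nonspecific level on all 18 arrays. These were 5 of 7 for neutrophils, 7 of 8 for mast cells and basophils and 4 of 7 for NK cells. For dendritic cells they were 4 of 5 and for B cells 5 of 6. The part of these lists in the receptor results was not tested.

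Across the 18 arrays, which share 6 groups, the receptor genes were compared by the Pearson r of their log2 values, as a description. Fcgr1 and Fcgr4 gave r = 0.765 and Fcgr2b with Fcgr1 at 0.736, with Fcer1g at 0.772, with Fcgr4 at 0.257 and with Fcgr3 at -0.846. The genes most like Fcgr1, by the same measure, were Ctsc (0.953), Itga9 (0.948) and Pnp2 (0.948). For Fcgr4 they were Limd2 (0.971), Hivep2 (0.934) and Evl (0.904). With LPS, Limd2 differed by 0.17 in KO and 0.84 in WT cells, Hivep2 by 0.20 and 2.00, and Evl by 1.06 and 1.53. As these genes were picked by their likeness to Fcgr4 over the same arrays, a like response is no separate result. Fcgr3 was followed most closely by Susd3 (0.988), Nsmce4a (0.986) and Pip4k2a (0.980), Fcer1g by Trem3 (0.919), Lcp1 (0.915) and Gsr (0.915), and Fcgr2b by Copg1 (0.950), Slc25a33 (0.947) and 6330407A03Rik (0.939).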

How the data were processed

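RNA from 18 macrophage samples was hybridised to 1 Affymetrix HT MG-430PM array each (6 groups, 3 arrays a group, grouped by their titles). The authors deposited 1 linear intensity per probe set, for which the submitters' processing notes name Partek. The sources used here give no version, background correction or scaling. The deposited values were taken to log2 and quantile normalized over 45141 probe sets, of which 104 controls were then left out. Array number limits the precision. Of the rest, 28898 probe sets have 1 gene symbol, 551 several and 15588 none in the platform annotation.

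One limma fit (version 3.58.1, R 4.3.3) of the 6 group means gave all but the average over the 3 conditions, where the arrays of 1 genotype and number were averaged first. Tests were two-sided, with Benjamini-Hochberg adjustment over all 45037 probe sets and a threshold of 0.05. The fit of LPS against vehicle in WT cells recovered most of the larger changes seeded in simulated WT LPS arrays. That simulation gave all groups the same spread and covered no other comparison. Other scalings, filters, spread estimates, blocks, Fcgr2b probe sets and left-out arrays were tried.

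The members and the 14 gene lists (8 pathway, 6 marker; 133 of 149 genes matched) were chosen with earlier results of these data known. Named genes were all members, per pathway list up to 4 with the largest LPS response called in both genotypes and up to 2 called between genotypes, and the 3 genes most like each member. One gene named by this rule is not reported here. The test plan allowed for log2 values; the deposited ones were linear.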

Additional observations from a re-analysis of the deposited data

Results flagged for a closer look

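These results had an LPS response that differed between genotypes by the test of the difference itself. For the members they were the dimmer Fcgr1 probe set, 1436625_PM_at, whose response was smaller in KO cells (-1.41 ± 0.31, limma adjusted p = 0.048), the same probe set relative to Fcgr2b (-1.82 ± 0.36, limma adjusted p = 0.0164), and Fcgr4 relative to Fcgr2b (-2.18 ± 0.47, limma adjusted p = 0.0244). The brighter Fcgr1 probe set (-1.06, limma adjusted p = 0.335) and Fcgr4 by itself (-1.77, 0.0842) were not called. With plate row as a block the dimmer Fcgr1 probe set lost its call (-1.27, limma adjusted p = 0.0786). The Fcgr4 call relative to Fcgr2b was lost under several alternatives given above.

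Among the listed signalling and regulatory genes, the adaptor Lat2 had a smaller response in KO cells (-1.06 ± 0.21, limma adjusted p = 0.0219) and the transcription factor gene Tfec a larger one (1.31 ± 0.23, limma adjusted p = 0.0133). Among the genes next to the members on their chromosomes, Adamts4, a metalloprotease gene beside Fcer1g, had a larger response in KO cells (3.62 ± 0.35, limma adjusted p = 6.98e-05).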

How the results depend on the processing

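Of 402 counts recomputed under an alternative, 319 stayed within 1.5 times the reported count, and 2418 of 2458 member differences kept their sign. In what follows, "called" counts the 5 receptor genes and "apart" the 4 activating genes that moved apart from Fcgr2b. With arrays shifted to the same median, 0 were apart in the genotype difference of the LPS response (1 reported), 0 were called at 0 h (1), 1 was apart after LPS (2), 2 were apart in the KO vehicle response (4), and 1 was called over the 3 conditions (0). Deposited values on their own scale gave the same 5 counts and 1 called after LPS (2). Shifting arrays to the 9 hybridisation controls gave the counts of the deposited scale, and 0 called in the WT (2) and 1 in the KO vehicle response (2). Raising values to the nonspecific level gave 1 called (0) and 2 apart (1) in the genotype difference of the LPS response, 1 apart in the WT vehicle response (0) and 2 called over the 3 conditions (0). The median of a gene's probe sets gave 2 apart in the difference of the LPS response, 1 called in the vehicle response of WT and of KO cells, and 1 apart in that of KO cells. Fitting only the groups compared gave 0 apart in the difference of the LPS response, 0 called at 0 h, 0 called and 0 apart after LPS, 2 apart in the WT and 1 called in the KO vehicle response. An intensity trend gave 1 called and 3 apart in the difference of the LPS response and 2 called over the 3 conditions. Reading Fcgr2b by 1435476_PM_a_at, 1451941_PM_a_at or 1455332_PM_x_at gave 1 apart in the KO vehicle response. By 1451941_PM_a_at, 2 were apart in the difference of the LPS response and 1 in the WT vehicle response, and in the KO vehicle response Fcgr3 and Fcer1g turned sign against Fcgr2b, to 0.052 and 0.061. The cause of these moves was not tested. Blocking the genotype comparisons on plate row, chosen after seeing the data, gave 0 called at 0 h and 1 apart after LPS. Blocking on plate column, leaving out dim probe sets and keeping 1 probe set per gene left all these counts within 1.5 times.

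Leaving out 1 array at a time gave 0 to 1 called at 0 h and in the difference of the LPS response, 1 to 2 called and 1 to 2 apart after LPS, 0 to 2 apart in the difference of the LPS response, 0 to 2 called in the WT and 1 to 2 in the KO vehicle response, 1 to 4 apart in the KO vehicle response, 0 to 2 apart in the genotype difference of the vehicle response, and 0 to 1 called and 1 to 2 apart over the 3 conditions. The Fcgr2b call at 0 h was lost with arrays shifted to the same median (-0.84, limma adjusted p = 0.0661), on the deposited scale (-0.95, 0.119), with arrays shifted to hybridisation controls (-0.85, 1) and in a fit of only those 6 arrays (-0.92, 0.105). Within-array differences from Fcgr2b do not depend on a shift of whole arrays: that of Fcgr4 in the genotype difference of the LPS response was -2.22 in these 3 scalings (limma adjusted p = 0.0527).

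Whether same replicate numbers mark paired samples could not be decided, since weak correlations of array deviations do not exclude a shared culture. Deviations from group means correlated at -0.046 to 0.144 within a genotype (18 pairs, 2 over 0.1, median 0.041). Between genotypes they correlated at -0.084 to 0.110 (9 pairs, 1 over 0.1, median -0.003). In each genotype a replicate number also kept the same plate column in the 3 conditions. With the replicate number as a replicate block, 2 were apart in the KO vehicle response and 1 was called over the 3 conditions, and no other count moved by over 1.5 times.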

Other observations

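Among the 5 measured genes on either side of each member, Adamts4, which encodes a protease of the extracellular matrix, rose by 4.26 ± 0.25 with LPS in KO cells (limma adjusted p = 1.27e-09) and was higher in KO than in WT cells after LPS by 3.82 on the log2 scale (limma adjusted p = 2.17e-07). Its neighbour Fcer1g differed by 0.01 in that comparison. Near Fcgr1, Txnip, which encodes a thioredoxin-binding protein, was lower in KO cells after LPS by 1.08 on the log2 scale. Pcp4l1, which lies between Fcgr3 and Fcer1g, fell by 2.81 in KO and by 2.50 in WT cells with LPS.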
